A study of Mus musculus with 6 samples.

Results

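Fibroblast growth factor (Fgf) receptors and the genes that report and restrain the signal downstream of them were examined in cortical cells cultured from mouse embryos at E13.5 (the embryonic day) after knockdown of Ybx1, an RNA-binding protein that reads 5-methylcytosine in mRNA. The 10 genes were taken by symbol from the deposited table: the receptors Fgfr1, Fgfr2 and Fgfr3, the Sprouty genes Spry1, Spry2 and Spry4, the transcription factor genes Etv4 and Etv5, and the phosphatase genes Dusp4 and Dusp6. All 10 were among the 17920 genes listed, and all 10 were among the 13669 that passed the filter on low counts. There were 3 control libraries (WT) and 3 knockdown libraries (KD), with 16294635 to 16497505 estimated counts each. The WT cells were not untouched: by the methods of the study, both groups were dissociated from E13.5 cortex, cultured, infected with an shRNA lentivirus (control hairpin or hairpin against Ybx1) and selected with puromycin, whereas the labels give the genotypes WT and KD and the tissue brain, and the design text names a deletion. That text also tells of 3 sequencing batches over the replicates, with no library assigned to one. Which of the 2 Ybx1 hairpins described was used is not stated, and the strain and sex of the embryos behind these cultures are not given in the sources used here. The medium described for such cultures was neurobasal with B27, with no Fgf named among its additions.

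Fgf receptors are tyrosine kinases of the cell surface. When a ligand binds, the adaptor Frs2 recruits Grb2 and Sos, which switch on Ras, and the kinases Raf, Mek and Erk follow in turn. Erk activity induces Etv4 and Etv5, and it also induces its own brakes, the Sprouty proteins, which dampen the signal between receptor and Raf, and the phosphatases Dusp4 and Dusp6, which remove phosphate from Erk. Levels of these transcripts are therefore widely read as an output of the pathway. In the developing cortex, Fgf receptors are expressed by radial glia, and Fgf signalling is known to sustain these progenitors.

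Of the 10 genes, 1 was higher in KD (Fgfr2) and 2 were lower (Spry4 and Etv4) at an adjusted P of 0.05, and 7 did not pass. Over all genes tested 24% passed in either direction, 12% higher and 11.9% lower, so 3 of 10 is near the background and is no result about the group. The median log2 fold change of the 10 was -0.07, where that of all genes tested was 0.00. What follows is therefore a description of single genes, in which Fgfr2 had the largest rise and Spry4 and Etv4 the largest falls. Values are counts scaled by TMM to 1000000 in each library (CPM) unless TPM, which also divides by transcript length, is named. Means carry their SD (n = 3 libraries in each group). Unless another test or a range over alternatives is named, an adjusted P is that of the quasi-likelihood test of edgeR. It carries a Benjamini-Hochberg adjustment over all genes tested. That test sets the difference between the groups against the spread between these libraries.

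The samples were checked first. Ybx1 was at 618, 615 and 653 CPM in WT replicates 1, 2 and 3 and at 98.3, 92.2 and 159 CPM in the KD libraries. This was -2.43 as a log2 fold change (SE 0.18, adjusted P = 0.000182). KD replicate 3 thus kept 25.3% of the WT mean, against 15.6% and 14.7% in KD replicates 1 and 2. Both replicate 2 libraries had between 1 and 23 counts for each of 4 Y-linked genes, which had 152 to 693 counts in the other libraries. By these counts the replicate 2 cultures held few or no male cells, unlike the others. Libraries with the same number deviated together from their group means (correlations over genes of 0.35, 0.32 and 0.18), so the numbers pair the libraries. The main fit, and the fits without single libraries or without the second pair, did not use this pairing. The fit blocked on that number is given where it changes a call. Without the second pair, 1.66% of all genes passed the threshold and none of the 10 did. That fit had fewer libraries and no other pair was left out, so whether the loss is particular to this pair was not tested. Of 9 radial glia markers, 8 had a log2 fold change above 0 and 2 passed (Pax6 and Hes1; 5 with the replicate block), with a summed level of 3075 to 3442 TPM in WT and 3493 to 3781 TPM in KD. The largest part of that sum was Fabp7, at a mean of 2582 TPM in WT and 2777 TPM in KD, which did not pass (0.04, adjusted P = 0.601). By limma-trend on log2(TPM + 1), the median log2 fold change of all genes tested was 0.05. The 9 neuron markers summed to 2718 to 3378 TPM in WT and 2993 to 3515 TPM in KD, with 2 higher, or 5 with the replicate block. Tubb3 was the largest part, at a mean of 1798 TPM in WT and 1792 TPM in KD, and did not pass (-0.06, adjusted P = 0.699). Microglia markers summed to at most 2.2 TPM, endothelial markers to at most 1.5 TPM and red blood cell markers to at most 1.07 TPM in any library.

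Sequence upstream of the genes is shown because Etv, Sprouty and Dusp genes are known targets of ETS factors and of Cic, a repressor that Erk inactivates. RefSeq windows (build GRCm38.p6, 250 bases before to 50 bases after a start) were used for 6 of the 10 genes, as 8 windows. No window was found for Fgfr1, Etv4 and Dusp4. Spry4 was left out of the set, so the motif counts do not cover it. With neither Etv4 nor Spry4 among them, the windows do not bear on how Fgfr2 differed from these genes. Capitals mark every match on either strand to TGAATG or TCAATG, the core of the Cic site, and to CGGAAG or AGGAAG, an ETS core with its flanks. These motifs were chosen after the windows had been seen, and a match of letters is not a bound site. The Fgfr2 window is at chr7:130266759-130267058 (minus strand), the Spry2 window at chr14:105896770-105897069 (minus strand), the Dusp6 window at chr10:99262981-99263280 (plus strand) and one of the windows of Etv5 at chr16:22438319-22438618 (minus strand).
Fgfr2: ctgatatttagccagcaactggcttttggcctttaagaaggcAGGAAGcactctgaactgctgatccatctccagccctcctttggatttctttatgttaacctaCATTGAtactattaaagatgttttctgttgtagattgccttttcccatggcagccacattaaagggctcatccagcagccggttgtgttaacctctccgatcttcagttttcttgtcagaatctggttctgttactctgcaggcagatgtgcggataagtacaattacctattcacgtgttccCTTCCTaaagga
Spry2: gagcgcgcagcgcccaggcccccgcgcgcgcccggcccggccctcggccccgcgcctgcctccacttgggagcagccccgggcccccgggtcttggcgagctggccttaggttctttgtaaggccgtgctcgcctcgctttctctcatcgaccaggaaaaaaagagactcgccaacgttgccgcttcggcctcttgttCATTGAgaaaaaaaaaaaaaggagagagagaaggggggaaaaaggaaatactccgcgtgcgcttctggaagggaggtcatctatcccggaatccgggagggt
Dusp6: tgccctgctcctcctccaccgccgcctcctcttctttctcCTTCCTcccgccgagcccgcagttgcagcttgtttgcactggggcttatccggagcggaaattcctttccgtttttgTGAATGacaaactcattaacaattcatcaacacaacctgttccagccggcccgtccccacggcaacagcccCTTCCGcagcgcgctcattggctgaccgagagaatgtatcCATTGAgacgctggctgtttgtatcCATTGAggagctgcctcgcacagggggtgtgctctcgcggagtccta
Etv5: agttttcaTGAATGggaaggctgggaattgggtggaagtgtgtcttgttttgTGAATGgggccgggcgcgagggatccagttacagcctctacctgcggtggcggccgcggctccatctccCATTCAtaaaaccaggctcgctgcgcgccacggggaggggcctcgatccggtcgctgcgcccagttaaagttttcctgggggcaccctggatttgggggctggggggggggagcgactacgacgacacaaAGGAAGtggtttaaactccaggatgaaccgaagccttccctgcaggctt

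The Dusp6 window held 1 TGAATG and 2 TCAATG matches, and the Etv5 window held 3 TGAATG matches. The Fgfr2 and Spry2 windows held 1 TCAATG match each. In all, 4 of the 8 windows held one of the Cic cores, which occur in 19.9% of all 32851 RefSeq windows of this length. One of the ETS cores was in 3 of the 8, against 46.5% of all windows. Since the motifs were chosen after the windows had been seen, these counts cannot test for an excess. The other Etv5 window, both Fgfr3 windows and the Spry1 window held none of the 4 motifs. The last 50 bases of the windows shown for Fgfr2 and Etv5 were found in 0 GENCODE M21 transcripts of those genes, and which start these cells used was not measured. Among the 6 windows found in such a transcript, 2 held a Cic core and 1 an ETS core. The 4 windows printed are the ones that hold a Cic core.

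Levels of different genes were compared per length. In WT the order of mean TPM was Spry2 (50.04), Fgfr1 (44.8), Etv5 (37.4), Fgfr3 (34.7), Dusp4 (29.6), Etv4 (21.3), Dusp6 (13.2), Spry1 (10.3), Fgfr2 (9.87) and Spry4 (7.66). The ranges over libraries overlapped between each neighbour from Spry2 down to Dusp4, and again from Spry1 to Spry4. The steps from Dusp4 to Etv4, from Etv4 to Dusp6 and from Dusp6 to Spry1 were larger than the spread between WT libraries. For scale, the median of all genes tested was 22.8 TPM. In KD, Fgfr2 stood sixth, at 17.6 ± 3.09 TPM, with a range that overlapped that of Etv4 (14.9 ± 1.22 TPM) below it. Spry4 stayed last in KD at 5.28 ± 0.576 TPM.

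**Figure D1:**
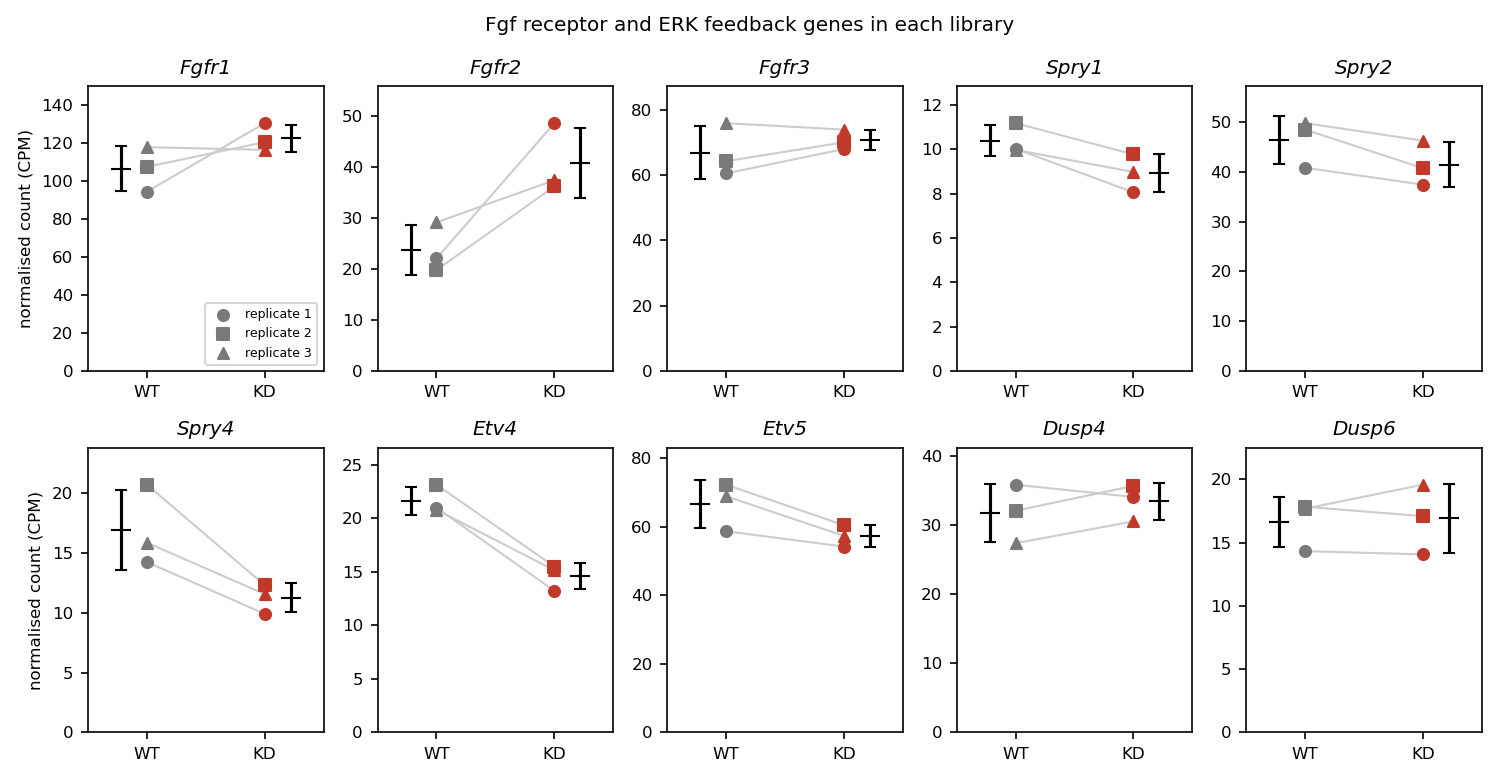
Normalised counts (CPM, vertical axis from 0) of the 10 genes in each library, with WT in grey and KD in red; grey lines join libraries with the same replicate number, and black marks beside them give the mean ± SD. All KD libraries lie above all WT libraries for Fgfr2 and below them for Spry1, Spry4 and Etv4, and the groups overlap for the other 6 genes.

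Fgfr2 encodes the receptor that, with Fgfr1 and Fgfr3, makes up nearly all transcripts of Fgf receptors with a kinase domain in these cells. The WT libraries 1, 2 and 3 held 22.03, 19.8 and 29.1 CPM and the KD libraries 48.5, 36.1 and 37.3 CPM. All KD libraries lay above all WT libraries, KD replicate 1 stood highest and WT replicate 3 highest among the controls. The log2 fold change was 0.78 (SE 0.15, adjusted P = 0.00807), a level 1.72 times that of WT, and 2.66% of the genes tested had an absolute log2 fold change at least as large. The call held without any one library (adjusted P between 0.00345 and 0.0375, over log2 fold changes of 0.64 to 0.96). Without the second pair the log2 fold change was 0.75, with an adjusted P of 0.0827, and over all 17 alternatives the adjusted P ranged from 5.42e-06, by DESeq2, to this value. By RefSeq, Fgfr2 (Entrez Gene 14183) lies at chr7:130162451-130266808 on the minus strand, and GENCODE M21 joins it to Ctbp2, on the same strand, in a read-through transcript. Its estimated counts were whole numbers in all libraries, as were those of the other 9 genes. In bulk RNA, more cells that express a gene cannot be told apart from more transcript per cell.

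Fgfr1, the receptor with the highest level in TPM, was at 94.5, 108 and 118 CPM in WT and 131, 121 and 117 CPM in KD. The groups overlapped, since WT replicate 3 lay above KD replicate 3. The log2 fold change was 0.20 (SE 0.08, adjusted P = 0.106, unadjusted 95% interval 0.02 to 0.39). With the replicate block it was 0.20 as well and passed (SE 0.07, adjusted P = 0.0364), and without WT replicate 3 it was 0.28 and passed (adjusted P = 0.0322), over a range of 0.0322 to 0.331 for its alternatives. Fgfr3 was at 60.6, 64.3 and 76.0 CPM in WT and 68.0, 70.1 and 74.0 CPM in KD. Its groups overlapped and its log2 fold change was 0.08 (adjusted P = 0.528), with an interval of -0.11 to 0.27, so a rise of the size seen in Fgfr2 lay outside it. Antisense genes overlap exons of Fgfr1 (Gm16159), Fgfr3 (G630022F23Rik) and Spry1 (Gm42922) in GENCODE M21, and whether counting used strand is not given in the sources used here.

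The make-up of the receptor transcripts was also compared within libraries, a measure that does not depend on scaling between them. Of the summed TPM of Fgfr1, Fgfr2 and Fgfr3, Fgfr2 made up 11.4%, 9.56% and 11.99% in WT replicates 1, 2 and 3, compared with 18.4%, 14.8% and 15.1% for KD. That is 11.0% ± 1.27 in WT and 16.1% ± 1.99 in KD, with no overlap. Fgfr3 took 38.8% ± 0.478 in WT and 34.8% ± 2.83 in KD, also with no overlap. Shares within a family are not independent, since a larger share of one gene lowers those of the others. The level of Fgfr3 itself did not fall, at 34.7 ± 4.60 TPM in WT and 37.7 ± 1.28 TPM in KD. Fgfr1 held 50.2% ± 1.72 in WT and 49.1% ± 1.31 in KD, and these overlapped. A two-sided exact permutation test gave P = 0.10 for Fgfr2 and Fgfr3, the smallest that 3 against 3 libraries allow, and 0.20 after adjustment over the 10 shares tested.

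**Figure D2:**
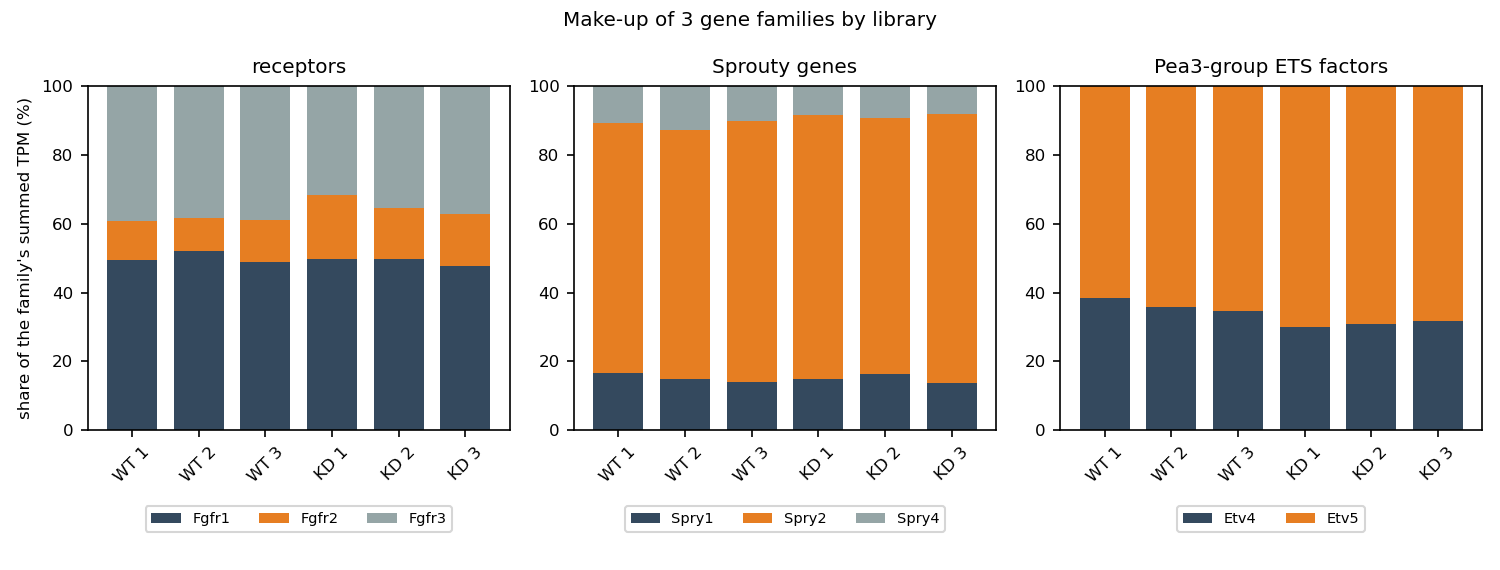
Share of each gene (vertical axis, percent) in the summed TPM of its family, counting only the 10 genes, for each of the 6 libraries. The families are the receptors, the Sprouty genes and the Etv4 and Etv5 pair. The Fgfr2 segment takes 9.56% to 11.99% in WT and 14.8% to 18.4% in KD, and the Etv4 segment 34.6% to 38.5% in WT and 29.9% to 31.8% in KD.

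Among the Sprouty genes, which encode inhibitors between receptor and Raf, Spry4 had the largest change. It was at 14.3, 20.7 and 15.9 CPM in WT and 9.92, 12.3 and 11.6 CPM in KD. The groups did not overlap, and WT replicate 2 stood above the other controls. The log2 fold change was -0.59 (SE 0.15, adjusted P = 0.0238), a level that fell by 33.5%. Spry4 lost its call without WT replicate 2 (-0.42, adjusted P = 0.0731), KD replicate 1 (-0.50, 0.0695) or KD replicate 3 (-0.61, 0.0529), and its adjusted P lay between 0.000348 with the replicate block and 0.13 without the second pair.

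Spry1 was at 10.01, 11.2 and 9.96 CPM in WT and 8.06, 9.76 and 8.97 CPM in KD. Although no KD library reached a WT library in CPM, the log2 fold change of -0.22 did not pass (SE 0.12, adjusted P = 0.204, interval -0.48 to 0.04). In TPM the groups overlapped, with KD replicate 2 at 10.31, above WT replicates 1 (10.06) and 3 (9.92). Spry2, the most abundant of the 3 in TPM, was at 40.8, 48.5 and 49.8 CPM in WT and 37.5, 40.8 and 46.3 CPM in KD, with overlap between the groups. Its log2 fold change was -0.16 (SE 0.10, adjusted P = 0.262, interval -0.38 to 0.06), with an adjusted P of 0.0536 under the replicate block. Each of the 3 Sprouty genes was lower in KD in all 3 same-numbered pairs. Spry4 took 11.2% ± 1.42 of the summed TPM of these 3 genes in WT and 8.64% ± 0.625 in KD, with no overlap (two-sided exact permutation P = 0.10, adjusted P = 0.20). Spry3, which is outside the 10 genes and the naming rule, was not in that sum. It averaged 3.54 TPM in WT and 2.96 TPM in KD and did not pass (-0.31, adjusted P = 0.128).

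Etv4 and Etv5 encode closely related ETS transcription factors of the Pea3 group, both induced by Erk. Etv4 was at 21.0, 23.1 and 20.8 CPM in WT and 13.2, 15.5 and 15.2 CPM in KD. The groups were well apart, with a gap between the lowest WT and the highest KD library wider than the spread within either group. The log2 fold change was -0.57 (SE 0.09, adjusted P = 0.00398), a level that fell by 32.4%. The call held without any one library (adjusted P between 0.00764 and 0.023), and without the second pair the value was -0.56 with an adjusted P of 0.0729. Etv4 (Entrez Gene 18612) lies at chr11:101769747-101785310 on the minus strand and shares no exonic base with another gene in GENCODE M21.

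Etv5 was at 58.6, 72.2 and 68.8 CPM in WT and 54.2, 60.4 and 57.3 CPM in KD. The groups overlapped because WT replicate 1 lay below KD replicate 2. The log2 fold change was -0.22 (SE 0.08, adjusted P = 0.0873, unadjusted interval -0.40 to -0.03). With the replicate block it was -0.21 and passed (SE 0.06, adjusted P = 0.00967), and without WT replicate 1 it was -0.30 and passed (adjusted P = 0.0203), over a range of 0.00967 to 0.302 for its alternatives. Etv4 made up 36.4% ± 2.002 of the summed TPM of the pair in WT and 30.9% ± 0.943 in KD, with no overlap (two-sided exact permutation P = 0.10, adjusted P = 0.20). Etv1, also of the Pea3 group and counted below among the further output genes, was not in that sum. It is outside the naming rule. Etv1 averaged 29.06 TPM in WT and 33.03 TPM in KD, with overlap in CPM, and did not pass (0.17, adjusted P = 0.2). With the replicate block Etv1 was higher in KD (0.17, adjusted P = 0.0303), opposite in direction to Etv4 and Etv5.

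The MAP kinase phosphatase genes showed no change that passed. Dusp6, whose product acts on Erk in the cytoplasm and which is often used as a readout of Fgf signalling, was at 14.3, 17.8 and 17.7 CPM in WT and 14.1, 17.1 and 19.6 CPM in KD. Its log2 fold change was 0.03 (SE 0.14, adjusted P = 0.913), with an interval of -0.29 to 0.34 that leaves out the estimates of Etv4 and Spry4. The interval of Spry4 (-0.93 to -0.25) overlapped that of Dusp6, and the interval of Etv4 (-0.78 to -0.35) did not. Differences between genes were not tested. Dusp4, a nuclear phosphatase of the same class, was at 35.9, 32.1 and 27.4 CPM in WT and 34.1, 35.7 and 30.5 CPM in KD. Its log2 fold change was 0.07 (SE 0.10, adjusted P = 0.641, interval -0.16 to 0.30). Both genes overlapped between groups, and without one library their log2 fold changes reached -0.023 for Dusp4 and -0.091 for Dusp6.

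**Figure D3:**
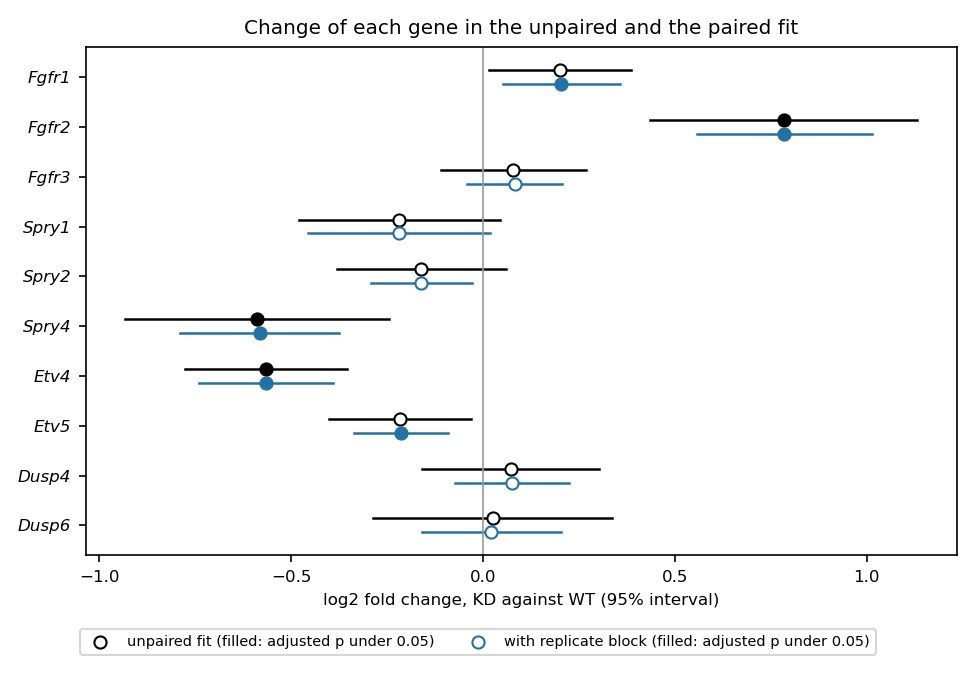
Log2 fold change of KD against WT (horizontal axis) with its unadjusted 95% interval for each gene, in the unpaired fit (black) and with the replicate number as a block (blue); filled points have an adjusted P under 0.05. Fgfr2, Spry4 and Etv4 are filled in both fits, and Fgfr1 and Etv5 only in the fit with the block.

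With the replicate block, 2 of the 10 genes were higher (Fgfr1 and Fgfr2) and 3 lower (Spry4, Etv4 and Etv5), where 36.6% of all genes tested passed in that fit, 18.6% higher and 18.1% lower. In that fit the log2 fold change was 0.79 for Fgfr2 (adjusted P = 6.67e-05) and -0.57 for Etv4 (adjusted P = 0.000109). For 4 of the 10 genes, 1 with KD above and 3 with KD below, the groups were free of overlap in CPM, against 41.6% of all genes tested (21% above and 20.6% below). The sign was the same in all 3 same-numbered pairs for 6 of the 10 genes, against 61.7% of all genes. The log2 ratio of KD to WT in pairs 1, 2 and 3 was 1.14, 0.87 and 0.36 for Fgfr2, so the pairs differed in size but not in sign. For Etv4 the ratios were -0.67, -0.58 and -0.46, and for Spry4 -0.52, -0.75 and -0.46. Pair 3 had the smallest difference for each of these, as it had for 58.9% of all genes past the threshold. Among the 10 genes pair 3 had it for 7, against 44.8% of all genes tested. Replicate 1 was the lowest library of both groups for 5 of the 10 genes (Fgfr3, Spry2, Spry4, Etv5 and Dusp6), which held for 17.9% of all genes tested.

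**Figure D4:**
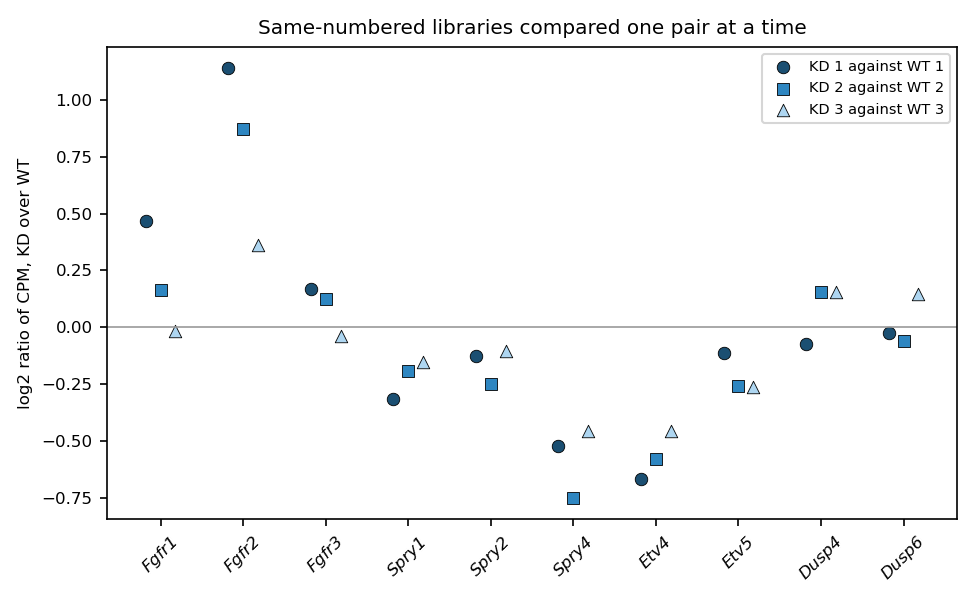
Log2 ratio of CPM of each KD library to the WT library with the same replicate number (vertical axis) for the 10 genes, with a symbol for each pair. All 3 pairs lie above 0 for Fgfr2 (0.36 to 1.14) and below 0 for the Sprouty genes, Etv4 and Etv5.

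Other genes of the pathway came from 8 lists holding 103 genes, of which 99 were in the table and 89 were tested. Of these, 11 were higher and 11 lower in KD, or 24.7%, near the 24% of all genes, and their median log2 fold change was -0.05. At least 10 CPM in one group was required of the genes named from them, at most 4 per list. Genes that miss this rule are called outside it where they are named. With the replicate block 16 of the 89 were higher and 18 lower.

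Of 18 ligand genes, 14 were in the table and 8 were tested, and their levels were low, with a summed level of 19.6 to 21.6 TPM in WT and 20.6 to 21.9 TPM in KD. The 1 ligand past the threshold, named after its values were seen, was Fgf1, which fell from 4.05 ± 1.31 to 2.16 ± 0.528 CPM (-0.90, adjusted P = 0.0478) with overlap between the groups. Fgf2, the ligand commonly added to progenitor cultures and also outside the rule, averaged 1.97 CPM in WT against 1.60 CPM in KD (-0.30, adjusted P = 0.387), with fractional counts in all 6 libraries. Of the Fgf homologous factors, which stay inside the cell and act on sodium channels, 1 of 4 was lower, Fgf12, from 96.6 ± 8.15 to 80.5 ± 2.42 CPM (-0.26, adjusted P = 0.0233), and with the replicate block 2 of the 4 were lower.

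Among the other receptors and co-receptors, 1 of 6 tested was higher. This was Flrt3, a membrane protein that binds Fgf receptors and promotes their signal, which rose from 37.8 ± 5.31 to 50.9 ± 4.02 CPM (0.43, SE 0.10, adjusted P = 0.0167). Outside the rule, Fgfr4 was scarce, with 15 to 23 counts per library (adjusted P = 0.693). Fgfrl1, also outside the rule, binds ligand without a kinase domain and did not pass (-0.22, adjusted P = 0.17).

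In the cascade from adaptor to Erk, 1 of 22 genes was higher and 2 were lower, with a median log2 fold change of -0.01, and with the replicate block 2 were higher and 4 lower. The paired adaptors differed in direction. Frs2 rose from 78.7 ± 2.398 to 89.2 ± 3.22 CPM (0.18, adjusted P = 0.0361), whereas Frs3 fell from 30.9 ± 3.67 to 22.4 ± 1.71 CPM (-0.46, adjusted P = 0.0115). Grb2, which links the adaptors to Sos, fell from 197 ± 6.54 to 174 ± 9.16 CPM (-0.18, adjusted P = 0.0417).

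Of 14 tested brakes on Ras and Erk, 3 were higher and 2 lower (3 and 3 with the replicate block). Cblb, a ubiquitin ligase that marks receptors for degradation, was higher in KD, with 74.5 ± 5.89 CPM against 38.2 ± 3.01 CPM in WT (0.96, SE 0.08, adjusted P = 0.000308). The related gene Cbl, outside the naming rule, fell from 140 ± 2.16 to 116 ± 6.49 CPM (-0.26, adjusted P = 0.00906). The Spred genes, relatives of the Sprouty genes, also parted, with Spred1 at 0.29 (adjusted P = 0.00489) and Spred3 at -0.39 (adjusted P = 0.00516). Rasa1, which switches Ras off, rose too (0.29, adjusted P = 0.00522), and its count was fractional in 1 library.

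Of 13 genes for Erk effectors, 3 were higher and 2 lower (4 and 4 with the replicate block). Elk3 (0.54, adjusted P = 0.0292), Srf (0.27, adjusted P = 0.0179) and the kinase gene Mknk1 (0.42, adjusted P = 0.0164) rose, and Ets1 fell (-0.59, adjusted P = 0.0142). Cic, the repressor of Etv and Sprouty genes and outside the naming rule, fell from 382 ± 22.1 to 327 ± 7.68 CPM (-0.23, adjusted P = 0.0157).

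Of 8 further tested output genes, 1 was higher and 2 were lower (2 and 2 with the replicate block). Epha4, an ephrin receptor gene, was at 49.1, 52.9 and 73.7 CPM in WT and 116, 116 and 121 CPM in KD (1.01, SE 0.13, adjusted P = 0.00139). Egr1, an immediate early gene, was at 59.7, 53.9 and 38.4 CPM in WT and 28.3, 37.3 and 39.6 CPM in KD, which overlapped (-0.53, adjusted P = 0.0486). Ier3, at 4.03 ± 0.388 CPM in WT and below the level the rule required, fell by 1.04 on the log2 scale (adjusted P = 0.00527).

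Of 14 other receptor tyrosine kinases, which feed the same cascade, 2 were higher and 1 was lower (4 and 2 with the replicate block). Igf1r rose from 83.6 ± 12.8 to 122 ± 3.47 CPM (0.55, adjusted P = 0.00484) and Erbb4 fell from 169 ± 19.7 to 114 ± 16.7 CPM (-0.56, adjusted P = 0.00882). Pdgfrb, below the required level, rose (0.72, adjusted P = 0.0318).

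**Figure D5:**
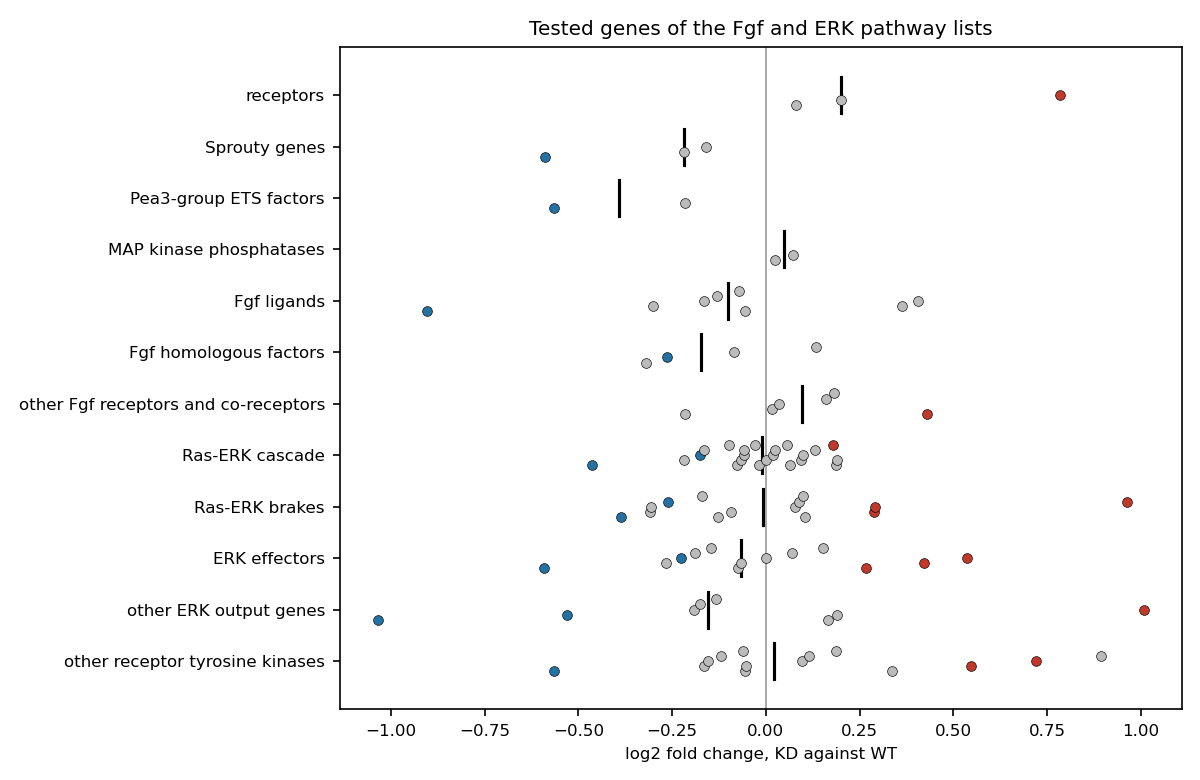
Log2 fold change of KD against WT (horizontal axis) for each tested gene of the 10 genes, by family (top 4 lines), and of the 8 other pathway lists; red points are higher and blue points lower at an adjusted P under 0.05, grey points did not pass, and black bars give the median of each line. Medians of the 8 other lists lie between -0.17 and 0.10.

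Markers of other cell types moved in the same libraries. Of 5 intermediate progenitor markers 4 were tested and all 4 were higher, with a summed level of 43.1 to 55.2 TPM in WT and 97.4 to 122 TPM in KD. Of 5 oligodendrocyte lineage markers 2 were lower (Olig1 and Cspg4), or 4 with the replicate block, and the summed level was 306 to 413 TPM in WT and 263 to 331 TPM in KD. Among 6 interneuron markers 1 was higher (Dlx2), or 2 higher and 1 lower with the replicate block, and their summed level ranged from 458 to 677 TPM in WT and from 493 to 758 TPM in KD. Astrocyte markers summed to 51.6 to 59.6 TPM in WT and 50.2 to 61.2 TPM in KD, with 0 of 3 tested past the threshold. Pericyte and meningeal markers summed to 4.92 to 8.95 TPM in WT and 6.12 to 9.12 TPM in KD, with 1 of 3 tested higher (Pdgfrb). The part of these cells in the changes of Fgfr2, Spry4 and Etv4 was not tested.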

How the data were processed

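Total RNA was extracted with Trizol from cultured cortical cells and mRNA libraries were sequenced on the DNBSEQ platform. The processing notes of the submitters name HISAT2 2.2.1, Bowtie2 2.4.5, RSEM 1.3.1 and the build GRCm38, with no role given. The authors deposited an estimated count and a TPM value per gene and library, the latter scaled to 1000000 per library. The deposited FPKM values and the group means were not used. Sample titles gave the group and the replicate number, and each Ctrl column was matched to the WT title bearing its number.

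Estimated counts were rounded to whole numbers for edgeR 4.0.16 under R 4.3.3 (TMM scaling, filterByExpr with a minimum count of 10, quasi-likelihood F-test, Benjamini-Hochberg adjustment over 13669 genes). The design had named counts, and the same test was kept. SE was obtained from the F statistic, as the size of the log2 fold change over the root of F. The between-library coefficient of variation was 7.7%, and 4.7% with the replicate block. The fit was tested on simulated data. Replicates differed by a chi-square of 4.57 to 9.05 per degree of freedom, so each library was counted once. The labels do not say what a replicate number marks, and the study speaks of independent replicate experiments. Pairing was taken from the correlations of same-numbered libraries, which all exceeded 0.1 and lay between -0.28 and -0.02 for unlike numbers. Because deviations were taken from group means, positive values for like numbers push those for unlike numbers down. The latter are therefore no separate evidence of pairing. Alternatives were 3 scalings, 2 filters, DESeq2 1.42.0, limma-voom, limma-trend (limma 3.58.1) on log2(TPM + 1) and log2(TPM + 0.1), the block, omission of libraries and stricter thresholds. From each pathway list the genes past the threshold with at least 10 CPM in one group were named, at most 4 by size of change. The members and lists were chosen with earlier results of these data known.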

Additional observations from a re-analysis of the deposited data

How the results depend on the processing

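All alternatives were planned. DESeq2 changed scaling and test together, limma-trend on TPM changed unit, scaling and test together, and the others changed 1 choice. Where no cause is named it was not tested. Over 17 alternatives each, Ybx1, Fgfr3, Spry1 and Spry2 kept their direction and their side of the threshold. With the replicate block Fgfr1 (0.20) and Etv5 (-0.21) passed, 2 of the 10 genes were higher, 2539 genes were higher and 2470 lower over all genes, and 18 other pathway genes were lower. The block changed no other call among the 10 genes. Without the second pair, with fewer samples, Fgfr2 (0.75), Spry4 (-0.49) and Etv4 (-0.56) no longer passed, 0 of the 10 genes were higher and 0 lower, 135 genes were higher and 93 lower over all genes, and 1 and 0 other pathway genes.

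When one library was left out, the numbers of higher and lower genes were 779 to 1612 and 797 to 1583 over all genes, 1 to 2 and 1 to 3 of the 10, and 5 to 14 and 5 to 12 of the other pathway genes. Log2 fold changes then ranged from 0.12 to 0.28 for Fgfr1, -0.70 to -0.42 for Spry4, -0.30 to -0.15 for Etv5, -0.023 to 0.17 for Dusp4 (below 0 without WT replicate 3) and -0.091 to 0.14 for Dusp6 (below 0 without WT replicate 1 and without KD replicate 3). On TPM, limma-trend called 1072 genes lower with a pseudocount of 1 and 1063 with 0.1, and 5 other pathway genes lower with either. The higher share of its calls was 65.9% and 66.1%, against 50.2%, and over the count scalings this share lay between 43% and 57.9%. By construction, an adjusted P under 0.01 left 629 genes higher and 634 lower over all genes, 1 of the 10 lower, and 5 and 4 other pathway genes. A fold of at least 1.5 left 294 and 244 genes, 1 of the 10 lower, and 3 and 3 other pathway genes.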
